A study of Mus musculus with 8 samples.

Results

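The genes described here are 9 regulators and surface proteins of hematopoietic stem and progenitor cells outside the erythroid program, *Kit*, *Flt3*, *Cd34*, *Myb*, *Hoxa9*, *Meis1*, *Erg*, *Spi1* and *Gfi1*. They were taken by name from a table of 47493 genes, and all 9 were found once. Expression was measured by RNA sequencing in 8 libraries from 4 female C57BL/6 mice of 6 to 8 weeks at the start. Every mouse had received 200000 B16-F10 melanoma cells (a mouse tumor line) on day 0, cyclophosphamide (300 mg/kg), a drug that depletes lymphocytes, on day 3, and 2000000 Pmel-1 cells on day 5. Pmel-1 cells are CD8+ T cells with a transgenic receptor for the melanocyte antigen gp100, and they carry the Thy1.1 antigen. Every mouse also received recombinant human IL-2 (10000 IU daily for 3 days from day 5) and weekly anti-CD4 antibody (clone GK1.5, 200 μg, for 3 weeks from day 10), so the flow-through cells carry the same treatments as the enriched cells and there was no untreated group. On day 25, endogenous (Thy1.1-negative) CD8+ T cells were isolated from inguinal lymph nodes and spleen by removal of other cells with beads. Cells with high IL-18Rα, the binding chain of the interleukin-18 receptor, were retained on a magnetic column (IL-18Rαhi-enriched, n = 4), and the cells that ran through it served as the control (flow-through, n = 4). Both fractions were bulk preparations of bead-separated cells and not single-cell sorts.

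Blood cells arise from stem and progenitor cells that live in the bone marrow and, after marrow injury, also in the mouse spleen. The receptor tyrosine kinases KIT and FLT3 pass survival and growth signals to these cells, and a set of transcription factors, among them MYB, ERG, HOXA9 and MEIS1, maintains their immature state. PU.1, the product of *Spi1*, and GFI1 then help to set the choice between myeloid and other fates. Most of the 9 genes are silent in resting mature T cells, but *Myb* and *Gfi1* are also used by developing and activated T cells.

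The labels were checked with the selected receptor. *Il18r1* was at 22.2 to 37.2 FPKM in the flow-through libraries and at 106.6 to 116.0 FPKM after enrichment. FPKM is the number of fragments scaled by transcript length and library depth. *Cd8a* was at 179.2 to 344.7 and 360.8 to 385.0 FPKM, and all 8 CD8 T-cell markers examined were expressed in every library. Marker genes of erythroid, granulocyte, mast-cell, dendritic and other lineages were expressed as well, and their levels stand beside the results below. Depth is not stored with FPKM values, but low values of single-transcript genes placed it at roughly 14200000 to 17900000 fragments per library. Differences were tested with limma on log2(FPKM + 1) over the 12166 genes that averaged 1 FPKM or more, and a call is a Benjamini-Hochberg adjusted p under 0.05. On this scale the change of genes of low level is understated. In the enriched fraction 1720 genes were higher (14.1%) and 1664 were lower (13.7%), 27.8% in all.

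Of the 9 progenitor genes, 5 fell in the enriched fraction, 1 rose and 3 did not pass the test. *Myb* (3.09 times as high in the flow-through), *Kit* (2.24 times), *Cd34* (2.77 times), *Erg* (2.60 times) and *Hoxa9* (2.39 times) fell, *Flt3* rose (2.52 times as high in the enriched fraction), and *Meis1*, *Spi1* and *Gfi1* were not called. All 9 passed the filter on low values, but *Hoxa9* did so only through the flow-through, where it was high, since its enriched mean (0.87 FPKM) was under the filter. Its call therefore adds nothing to the count, and without it 4 of 8 members were lower. The 5 of 9 lower members stand against 13.7% of all genes tested, and the 1 of 9 higher members against 14.1%. The libraries of the fractions did not overlap for the same 5 lower members, against 15.9% of all genes, and for 0 higher members, against 16.4%. At an unadjusted limma p under 0.05 the counts were the same, 5 lower (21.3% of all genes) and 1 higher (20%). In 4 of 4 mice 6 members were lower (30.6% of all genes) and 2 were higher (29.2%). With the mouse as a block, 6 members, *Hoxa9* again among them, were lower and 2 were higher, against 22.7% and 22.2% of all genes. *Meis1* and *Spi1* then passed. With no filter on low values 3 members were lower (5.63% of all genes) and 0 were higher (7.32%). Under a filter of 5 FPKM 6 members were tested, 3 were lower (14.7% of all genes) and 1 was higher (14.3%). In bulk RNA, fewer cells of a type and less RNA per cell cannot be told apart, so these values describe the fractions and not single cells.

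**Figure D1:**
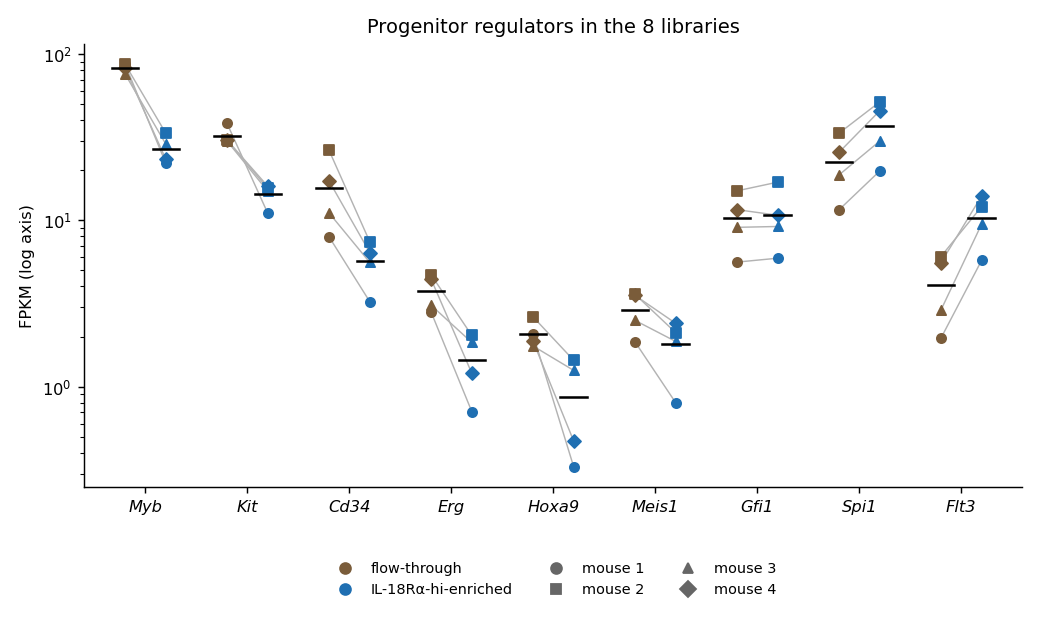
FPKM (log axis) of the 9 genes in the 4 flow-through (brown) and 4 IL-18Rαhi-enriched libraries (blue). Symbols mark the mouse, grey lines join the fractions of 1 mouse and black bars are means. *Myb* lies between 75.9 and 86.9 FPKM in the flow-through and between 22.04 and 33.4 FPKM in the enriched libraries, while the lines of *Spi1* and *Flt3* run upward in all 4 mice.

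*Kit* (mm10 chromosome 5, 75574916 to 75656722, plus strand) encodes the receptor for stem cell factor and marks stem cells, early progenitors and mast cells. It was at 38.3, 30.4, 30.0 and 30.4 FPKM in flow-through replicates 1 to 4 and at 11.0, 15.5, 15.0 and 16.0 FPKM in the enriched replicates. The fractions were far apart, and mouse 1 had both the highest flow-through and the lowest enriched value. *Kit* differed by -1.12 on the log2 scale (SE 0.13, 95% interval -1.42 to -0.82, limma adjusted p = 0.00136). Within the mice the flow-through level was 3.48, 1.96, 2.005 and 1.90 times the enriched level, and without mouse 1 the log2 fold change was -0.92. *Kitl*, which encodes stem cell factor, was at 0.05 to 0.307 FPKM over the 8 libraries.

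*Flt3* (chromosome 5, 147330741 to 147400489, minus strand) encodes the receptor for FLT3 ligand and is used by multipotent and lymphoid progenitors and by the dendritic cell lineage. It was at 1.95, 6.05, 2.88 and 5.55 FPKM in the flow-through and at 5.75, 12.1, 9.49 and 14.01 FPKM in the enriched replicates. The lowest enriched library, that of mouse 1, lay below the highest flow-through library, that of mouse 2, so the fractions overlapped, but every mouse had the higher level in its enriched fraction. The fitted log2 difference was 1.18 (SE 0.34, 95% interval 0.41 to 1.95, limma adjusted p = 0.0327), and with the mouse as a block the adjusted p was 0.0005. The unblocked call was lost without flow-through replicate 1 (0.95) or 3 (1.08) and without enriched replicate 2 (1.09), 3 (1.20) or 4 (1.02), with adjusted p-values of 0.0202 to 0.0899 over the 8 limma fits that left out 1 library. Its ligand gene *Flt3l*, which many lymphocytes express, rose from 31.6 ± 5.54 to 44.9 ± 3.04 FPKM (SD, n = 4; log2 fold change 0.51, limma adjusted p = 0.0202).

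*Cd34* (chromosome 1, 194938819 to 194961279, plus strand) encodes a sialomucin on progenitor, mast and endothelial cells. It was at 7.96, 26.4, 11.1 and 17.3 FPKM in the flow-through and at 3.24, 7.43, 5.58 and 6.40 FPKM in the enriched replicates. The fractions did not overlap, although the flow-through library of mouse 1 lay only just above the highest enriched library, and the flow-through values spread over 3.31 times. For *Cd34* the estimate was -1.24 on the log2 scale (SE 0.35, 95% interval -2.04 to -0.44, limma adjusted p = 0.0315). The call was lost without flow-through replicate 3 (-1.35) or 4 (-1.15) and without enriched replicate 1 (-1.04), 3 (-1.25) or 4 (-1.31), with limma adjusted p-values from 0.0116 to 0.0699 over the 8 fits, and it was kept with the mouse as a block (adjusted p = 0.00096).

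*Myb* (chromosome 10, 21124935 to 21160984, minus strand) encodes a transcription factor that progenitors of nearly all blood lineages need for self-renewal and proliferation. It was the most abundant of the 9 transcripts in the flow-through, with 86.7, 86.9, 75.9 and 82.1 FPKM in replicates 1 to 4, and was at 22.04, 33.4, 28.7 and 23.3 FPKM in the enriched replicates. No flow-through library came near an enriched one, and the flow-through values differed by no more than 1.15 times. *Myb* thus had a log2 fold change of -1.61 (SE 0.13, 95% interval -1.91 to -1.31, limma adjusted p = 0.00029). The level in the flow-through was 3.93, 2.60, 2.64 and 3.53 times that in the enriched fraction of the same mouse. *Myb* shares exon bases with an antisense transcript, *Gm26577*, *Cd34* with *Gm16897*, *Gfi1* with *A430072P03Rik* and *Hoxa9* with *Mir196b*. The libraries were stranded, but whether strand was used in quantification is not given in the sources used here beyond default options, so the part of these neighbors in the levels is uncertain.

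*Erg* (chromosome 16, 95359169 to 95586593, minus strand) encodes an ETS-family factor of stem cells and endothelium. It was at 2.82, 4.72, 3.09 and 4.44 FPKM in the flow-through and at 0.71, 2.03, 1.84 and 1.21 FPKM in the enriched replicates. All flow-through libraries lay above all enriched libraries. The log2 estimate was -0.98 (SE 0.22, 95% interval -1.47 to -0.48, limma adjusted p = 0.0130), and *Erg* remained called in each of the 8 fits that left out 1 library.

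*Hoxa9* (chromosome 6, 52223100 to 52231089, minus strand) encodes a homeodomain factor of stem and myeloid progenitor cells and was the rarest member. It was at 2.07, 2.63, 1.76 and 1.88 FPKM in the flow-through and at 0.33, 1.44, 1.25 and 0.47 FPKM in the enriched replicates. The fractions did not overlap, and the enriched libraries of mice 1 and 4 lay well below those of mice 2 and 3. The log2 difference was -0.76 (SE 0.22, 95% interval -1.26 to -0.26, limma adjusted p = 0.0341). The call was lost without any 1 of the flow-through replicates (-0.76, -0.68, -0.81 and -0.79 for replicates 1 to 4) and without enriched replicate 1 (-0.61) or 4 (-0.66), with limma adjusted p-values of 0.0288 to 0.0898 over the 8 fits. It was kept with the mouse as a block (adjusted p = 0.0126).

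*Meis1* (chromosome 11, 18879817 to 19018985, minus strand) encodes the DNA-binding partner of HOXA9. It was at 1.86, 3.59, 2.503 and 3.54 FPKM in the flow-through and at 0.80, 2.11, 1.87 and 2.40 FPKM in the enriched replicates. The fractions overlapped, since the flow-through library of mouse 1 lay below 3 of the enriched libraries, but each mouse had its lower level in the enriched fraction. Unblocked, the log2 fold change was -0.48 (SE 0.24, 95% interval -1.02 to 0.06, limma adjusted p = 0.157), and with the mouse as a block the same difference passed (SE 0.11, adjusted p = 0.0130). *Meis1* shares exon bases with *Gm16140* on the other strand and with *Gm37818*, so its level is uncertain.

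*Spi1* (chromosome 2, 91082390 to 91115756, plus strand) encodes PU.1, which drives the myeloid and B-cell fates and is turned down in T cells. It was at 11.5, 33.3, 18.7 and 25.6 FPKM in the flow-through and at 19.8, 51.5, 29.9 and 45.5 FPKM in the enriched replicates. The fractions overlapped because the mice differed by 2.89 times in the flow-through and 2.60 times in the enriched fraction, but within the mice the enriched level was 1.71, 1.54, 1.6 and 1.78 times the flow-through level. *Spi1* had a log2 fold change of 0.70 (SE 0.37, 95% interval -0.14 to 1.54, limma adjusted p = 0.187), and it passed with the mouse as a block (SE 0.07, adjusted p = 0.0006). When the mouse was a block and the values were also scaled to T-cell genes, it did not pass (0.33, adjusted p = 0.303).

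*Gfi1* (chromosome 5, 107716657 to 107726036, minus strand) encodes a zinc-finger repressor of stem cells, granulocyte progenitors and T cells. It was at 5.60, 15.0, 9.07 and 11.6 FPKM in the flow-through and at 5.92, 17.0, 9.18 and 10.7 FPKM in the enriched replicates. The fractions overlapped throughout, and within the mice the enriched level was 1.06, 1.13, 1.01 and 0.93 times the flow-through level. The log2 difference was 0.036 with a 95% interval of -0.73 to 0.80 (SE 0.34, limma adjusted p = 0.947), which leaves room for changes in either direction, and its sign turned without flow-through replicate 1 (-0.20), without enriched replicate 2 (-0.20) and under T-cell scaling (-0.31). With the mouse as a block its SE was 0.08 (adjusted p = 0.732).

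**Figure D2:**
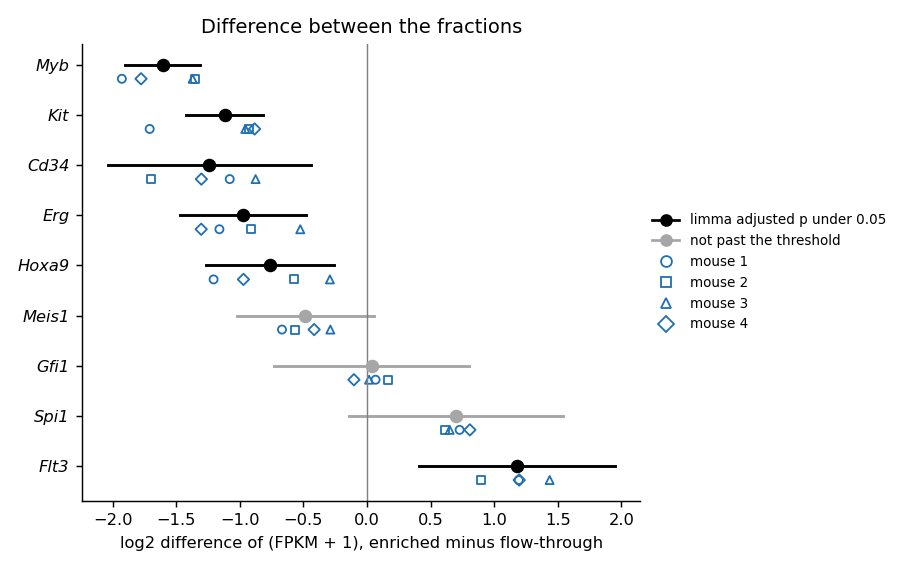
Difference of log2(FPKM + 1) between the fractions for each gene, with the limma estimate and its 95% interval (black where the adjusted p was under 0.05, grey otherwise) and the differences within each of the 4 mice (open blue symbols). The 4 mice agree in sign for every gene except *Gfi1*, and for *Spi1* they lie close together inside a wide interval.

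The order of the levels differed between the fractions. FPKM is per transcript length, so levels can be set side by side, although each depends on the transcript models used. In the flow-through the mean levels ran from *Myb* (82.9 FPKM) over *Kit* (32.3), *Spi1* (22.3), *Cd34* (15.7), *Gfi1* (10.3), *Flt3* (4.11), *Erg* (3.77) and *Meis1* (2.87) to *Hoxa9* (2.08). Only *Myb* and *Kit* were separated from each other without overlap of their libraries, and all other neighbors overlapped. In the enriched fraction *Spi1* came first (36.7 FPKM), followed by *Myb* (26.8), *Kit* (14.4), *Gfi1* (10.7), *Flt3* (10.3), *Cd34* (5.66), *Meis1* (1.79), *Erg* (1.45) and *Hoxa9* (0.87). There, *Spi1* and *Myb* overlapped, with *Spi1* the higher in 3 of 4 libraries, *Gfi1* and *Flt3* were each the higher in 2 of 4, and *Myb* stood clear of *Kit* and *Cd34* clear of *Meis1*.

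Ratios of a pair of genes within a library do not depend on how libraries are scaled. The pairs were chosen after the values had been seen and were not tested. *Cd34* was at 4.08, 4.36, 3.85 and 3.11 times the level of *Flt3* in the flow-through replicates and at 0.56, 0.61, 0.59 and 0.46 times in the enriched replicates. *Kit* was at 5.02 to 19.6 times the level of *Flt3* in the flow-through and at 1.14 to 1.92 times in the enriched libraries. *Myb* was at 2.61 to 7.51 times the level of *Spi1* in the flow-through and at 0.51 to 1.12 times in the enriched libraries. *Myb* was at 2.27 to 2.86 times the level of *Kit* in the flow-through and at 1.45 to 2.15 times in the enriched libraries. None of the 4 ratios overlapped between the fractions, but this count carries no weight of its own. Pairs with *Flt3* or *Spi1* set a member that fell against a member that was higher in the enriched fraction of every mouse. Their separation was thus in part given by the choice. For *Myb* and *Kit*, which both fell, the ranges came close to each other (2.27 against 2.15).

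Because the 5 lower members shared a direction, though not an order over the mice, and *Flt3* went the other way, their promoters were compared. The 250 bases upstream of the RefSeq start (GRCm38.p6, the 5′-most start of each gene) are shown for *Myb*, the member with the lowest adjusted p, for *Cd34* and *Erg*, which fell and hold letters of the MYB motif, and for *Flt3*, the member that rose. These were picked with the motif matches known. *Kit*, which fell, had no match to any motif searched and neither did *Myb*, while *Meis1*, which was not called, holds the MYB letters. Capitals mark matches to the motifs searched on either strand, TAACNG for MYB, its variant CAACNG, the ETS motif GGAAGT, the MEIS motif TGACAG, the GATA motif AGATAA and its variant TGATAA. No matches in the printed stretches overlap one another.
Myb (chr10:21160985-21161234, minus strand): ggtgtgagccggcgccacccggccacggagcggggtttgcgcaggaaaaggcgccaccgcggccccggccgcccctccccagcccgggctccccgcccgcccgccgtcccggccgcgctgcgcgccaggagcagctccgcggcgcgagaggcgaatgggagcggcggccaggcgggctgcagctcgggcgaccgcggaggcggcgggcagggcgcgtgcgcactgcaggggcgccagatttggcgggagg
Cd34 (chr1:194938571-194938820, plus strand): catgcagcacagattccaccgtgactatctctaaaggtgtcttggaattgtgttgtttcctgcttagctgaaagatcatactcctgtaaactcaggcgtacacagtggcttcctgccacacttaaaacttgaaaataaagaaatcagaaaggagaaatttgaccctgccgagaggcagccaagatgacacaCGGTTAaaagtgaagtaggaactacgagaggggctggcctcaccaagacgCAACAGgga
Erg (chr16:95586594-95586843, minus strand): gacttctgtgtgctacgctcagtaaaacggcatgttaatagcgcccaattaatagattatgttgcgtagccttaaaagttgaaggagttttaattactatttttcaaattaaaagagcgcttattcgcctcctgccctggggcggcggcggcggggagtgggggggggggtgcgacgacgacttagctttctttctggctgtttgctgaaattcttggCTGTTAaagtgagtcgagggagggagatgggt
Flt3 (chr5:147400490-147400739, minus strand): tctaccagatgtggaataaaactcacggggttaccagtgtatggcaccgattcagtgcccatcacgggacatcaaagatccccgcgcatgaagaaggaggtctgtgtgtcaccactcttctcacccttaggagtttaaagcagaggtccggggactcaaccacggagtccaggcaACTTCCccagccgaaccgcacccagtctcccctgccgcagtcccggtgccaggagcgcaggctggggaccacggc

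Of the 9 genes, 8 matched an entry in the promoter table, and *Spi1* did not. In windows from 250 bases before to 50 after the start, TAACNG was found in 3 of these 8 promoters (*Cd34*, *Erg* and *Meis1*), against 23.2% of 27025 promoters, and CAACNG in 2 (*Cd34* and *Hoxa9*), against 35.1%. GGAAGT was found in *Flt3* and *Meis1*, against 24.1% of all promoters, and the MEIS motif (19.3% of all promoters), the first GATA motif (11.4%) and its variant (9.23%) in 0 of 8. In *Cd34* the MYB letters began 59 and 9 bases before the start, in *Erg* 32 bases before it. The upstream bases of *Myb* were 81.2% G or C, those of *Cd34* 46.4% and those of *Flt3* 59.2%, against a median of 52% over all promoters. These matches describe letters in a short window and not binding, and the shares were not tested against those of all genes.

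The mice differed in the same order for several members. *Cd34*, *Spi1* and *Gfi1* were highest in mouse 2, next in mouse 4, then mouse 3, and lowest in mouse 1 in both fractions, and *Flt3*, *Meis1* and *Erg* had this order in the flow-through. The order was not particular to 1 cell type. The summed FPKM of the mast cell and basophil genes, the macrophage and monocyte genes and the PU.1 targets, which also hold *Lyz2* and *Itgam*, had it in both fractions, and *Cd8a* had it in the flow-through. So did the sum of 10 genes of granulocyte progenitors, with 593.7, 3448, 1034 and 1567 in flow-through replicates 1 to 4 and 578.7, 3411, 1018 and 1492 in the enriched replicates. The summed FPKM of 14 genes of erythroid progenitors ran otherwise, with 3984, 1217, 2197 and 1525 in the flow-through and 1633, 310.3, 853.6 and 332.6 in the enriched replicates, so that mouse 1 was highest. *Myb* in the flow-through followed neither, since it was between 75.9 and 86.9 FPKM in all mice. Whether these cell types account for the level of a member was not tested.

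Other regulators of stem and progenitor cells were read from a list of 25 transcription factors, of which 18 were tested, 7 fell, 2 rose and 9 were not called. The median log2 fold change was -0.078, against -0.018 over all genes tested. *Lmo2*, which encodes an adaptor of stem-cell and erythroid factor complexes, fell from 95.2 ± 32.9 to 32.1 ± 7.49 FPKM (SD, n = 4; log2 fold change -1.51, limma adjusted p = 0.0038). *Bcl11a*, a repressor of fetal globin genes that is also needed in B-cell and dendritic precursors, fell from 34.04 ± 14.8 to 12.0 ± 3.26 FPKM (-1.38, adjusted p = 0.0093). *Sox4* (-1.02) and *Nfe2*, a factor of megakaryocytes and erythroid cells (-0.96), fell as well. The other 3 that fell were *Lyl1* (-0.93), *Gata2* (-0.82) and *Bmi1* (-0.40), and the 2 that rose were *Runx1*, which T cells also express (0.63), and *Hlf* (0.62); these 5 were named after their values were seen, to complete the counts.

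Surface proteins used to sort progenitors split in both directions. Of 18 genes, 14 were tested, 4 rose, 1 fell and 9 were not called, with a median log2 fold change of 0.53. *Adgrg1*, which encodes the adhesion receptor GPR56 of stem and cytotoxic cells, fell from 48.4 ± 6.30 to 17.2 ± 1.85 FPKM (log2 fold change -1.44, limma adjusted p = 0.00029). *Cd48* (1.32), *Ly6a*, which encodes SCA-1 (1.19), and *Slamf1* (1.18) rose, and all 3 are also expressed by activated lymphocytes. Of 8 ligand genes of progenitor receptors 3 were tested and rose, namely *Flt3l*, *Csf1* (0.68) and *Csf2* (1.00), of which *Csf2* passed the filter only through the enriched fraction, where it was high (0.58 against 2.31 FPKM), and *Epo*, *Il3* and *Thpo* were listed at 0 in every library.

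Genes known as MYB targets were on a list of 8, which holds the members *Kit* and *Cd34*. Of 7 tested, 4 fell and 0 rose, with a median log2 fold change of -0.72. *Myc*, a driver of growth and proliferation, was at 102.5 ± 4.70 FPKM and fell to 42.2 ± 3.88 FPKM (-1.26 on the log2 scale with an SE of 0.08, limma adjusted p = 0.0002), and *Ada*, adenosine deaminase, fell from 7.84 ± 1.09 to 5.50 ± 0.72 FPKM (-0.44, adjusted p = 0.0304). Among 6 family members and coactivators of MYB, *Mybl1* rose from 0.59 ± 0.08 to 1.53 ± 0.24 FPKM (0.67, adjusted p = 0.0064), *Crebbp* rose (0.40, adjusted p = 0.0477) and 0 fell. *Mybl1* passed the filter only through the enriched fraction, where it was high, so its call does not support the count for this family.

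The list for HOXA9 and MEIS1 had 12 genes, of which 7 were tested, 2 fell (*Sox4* and *Cdk6*, -0.43) and 0 rose. Its median log2 fold change was -0.28, and *Sox4* is also on the list of transcription factors. Among 12 PU.1 targets, all tested, 4 rose and 1 fell, with a median of 0.74. *Mpeg1* (1.57), *Lyz2* (1.41) and *Itgam* (1.27), genes of macrophages and related cells, rose, and *Btk*, a kinase of B cells and mast cells, fell (-1.14). A further entry under the name *Itgam* was below the filter and not tested (0 to 0.084 FPKM in the flow-through, 0.103 to 0.628 FPKM after enrichment). In the blocked fit 9 of these 12 genes were higher. Of 7 genes around GFI1, *Gfi1b*, its relative in erythroid and megakaryocyte cells, fell from 66.1 ± 41.3 to 17.9 ± 12.3 FPKM (-1.88, limma adjusted p = 0.0287) and *Hdac2* fell (-0.34), while *Id2*, which effector T cells and NK cells express, rose (1.63). Of 14 genes listed for KIT and FLT3 signaling, 5 rose and 1 fell, with a median of 0.21. Among them were *Sla* (0.90), *Sh2b3* (0.47), *Cbl* (0.46) and, lower, *Stat5a* (-0.48). The list was not split into genes that pass on and genes that restrain the signal, so its counts give no direction of signaling.

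**Figure D3:**
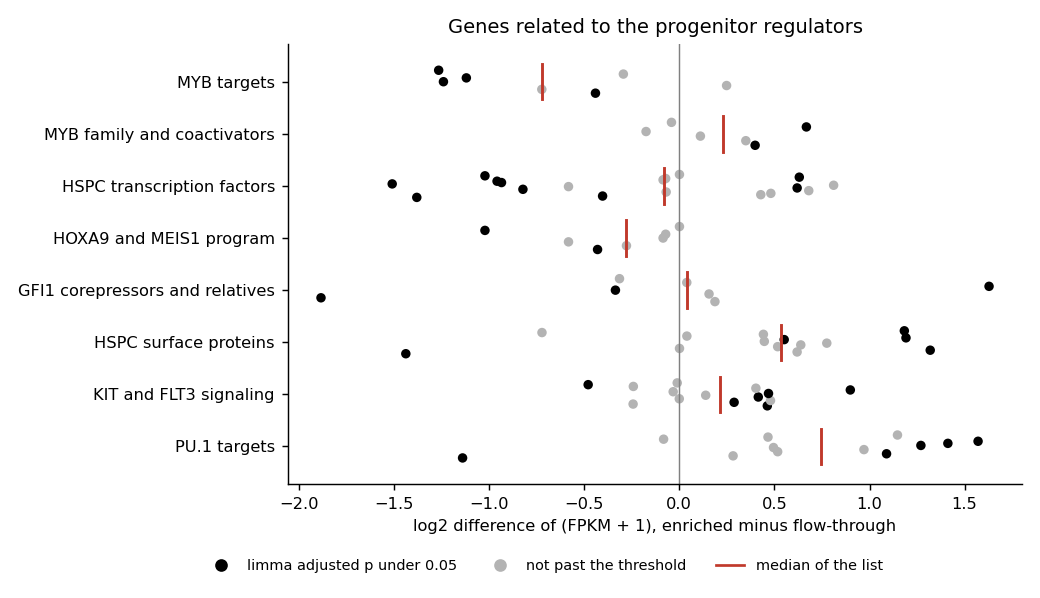
Difference of log2(FPKM + 1), enriched minus flow-through, for the tested genes of the 8 lists (1 point per gene, black where the limma adjusted p was under 0.05) with the median of each list in red. MYB targets lie mostly to the left (median -0.72) and PU.1 targets mostly to the right (median 0.74), and the transcription factor list holds genes on both sides.

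Markers of other cell types were read in the same libraries, and their part in the results for the 9 genes was not tested. Of 14 erythroid genes 5 fell and 0 rose, and 11 were lower with the mouse as a block. *Alas2* (log2 fold change -0.21), *Hbb-bt* (-0.03) and *Slc4a1* (-0.16), named after their values were seen, were called in neither fit. The largest falls were those of *Car1* (log2 fold change -2.61), *Tfr2* (-2.17), *Gata1* (-1.95) and *Epor* (-1.95), so the erythroid factor and the erythropoietin receptor moved in the direction of *Kit* and *Myb*. Of 10 granulocyte progenitor genes limma called 0, against 1 at an unadjusted p under 0.05 and, with the mouse as a block, 2 higher and 1 lower. Of 8 mast cell and basophil genes 7 were tested and 2 rose (*Prss34*, 1.65, and *Mcpt8*, 1.45). The other 5, named after their values were seen, were not called. They were *Fcer1a* (1.08), *Cma1* (0.57), *Cpa3* (0.55), *Ms4a2* (0.11) and *Hdc* (0.046). The summed FPKM of the list was 86.0 to 275.9 in the flow-through and 261.0 to 615.1 in the enriched libraries, while *Kit* was lower there. This sum does not separate mast cells from basophils.

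Of 10 dendritic cell genes 6 rose and 0 fell, among them *Batf3* (log2 fold change 1.80), *Xcr1* (1.76), *Itgax* (1.65) and *Clec9a* (1.63), in the direction of *Flt3*. The other 4, named after their values were seen, were not called. *Clec10a* (0.53) and *Bst2* (0.09) had positive estimates, *Zbtb46* (-0.23) and *Tcf4* (-0.19) negative ones. The part of dendritic cells in the rise of *Flt3* was not tested. *Xcr1* passed the filter only through the enriched fraction, as did 1 of the macrophage and monocyte genes and 1 of the NK-cell genes that rose. The dendritic cell genes had a summed FPKM of 114.8 to 146.2 in the flow-through and 146.5 to 209.5 in the enriched libraries. Of 9 tested genes of macrophages and monocytes 5 rose, in the direction of *Spi1*, with summed values of 464.3 to 1191 and 1063 to 1878. *Lyz2* and *Itgam* are among these and also among the PU.1 targets that rose, so the counts of these lists are not separate. Of 8 endothelial genes only 3 were tested, and *Eng* (-1.57) and *Egfl7* (-1.47) fell with *Cd34* and *Erg*, while *Pecam1* was at 15.6 to 30.7 FPKM in the flow-through and 18.5 to 26.5 FPKM in the enriched libraries and was not called. The other 5 were under the filter and are named after their values were seen. *Tek* was at 0.36, 0.805, 0.36 and 0.738 FPKM in the flow-through and at 0.124, 0.233, 0.135 and 0.156 FPKM in the enriched replicates, lower in all 4 mice. *Tie1* was at 0.515 to 1.633 FPKM in the flow-through and 0.328 to 1.215 FPKM in the enriched libraries, also lower in all 4 mice. *Cdh5* was instead higher in the enriched fraction of all 4 mice (0.121 to 0.152 against 0.275 to 0.4 FPKM). So was *Kdr* (0.078 to 0.248 against 0.175 to 0.411 FPKM). *Emcn* (0.04 to 0.203 against 0.042 to 0.212 FPKM) differed in both directions between the mice. The part of endothelial cells in the falls of *Cd34* and *Erg* was not tested. The 8 genes of B-lineage precursors summed to 2.38 to 6.77 FPKM in the flow-through and 2.18 to 6.26 FPKM after enrichment, and limma called 0 of the 1 tested (1 lower at an unadjusted p under 0.05 and in the blocked fit). The list of 8 megakaryocyte and platelet genes had 0 of 5 tested genes called by limma (0 also at an unadjusted p under 0.05, and 1 lower in the blocked fit).

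**Figure D4:**
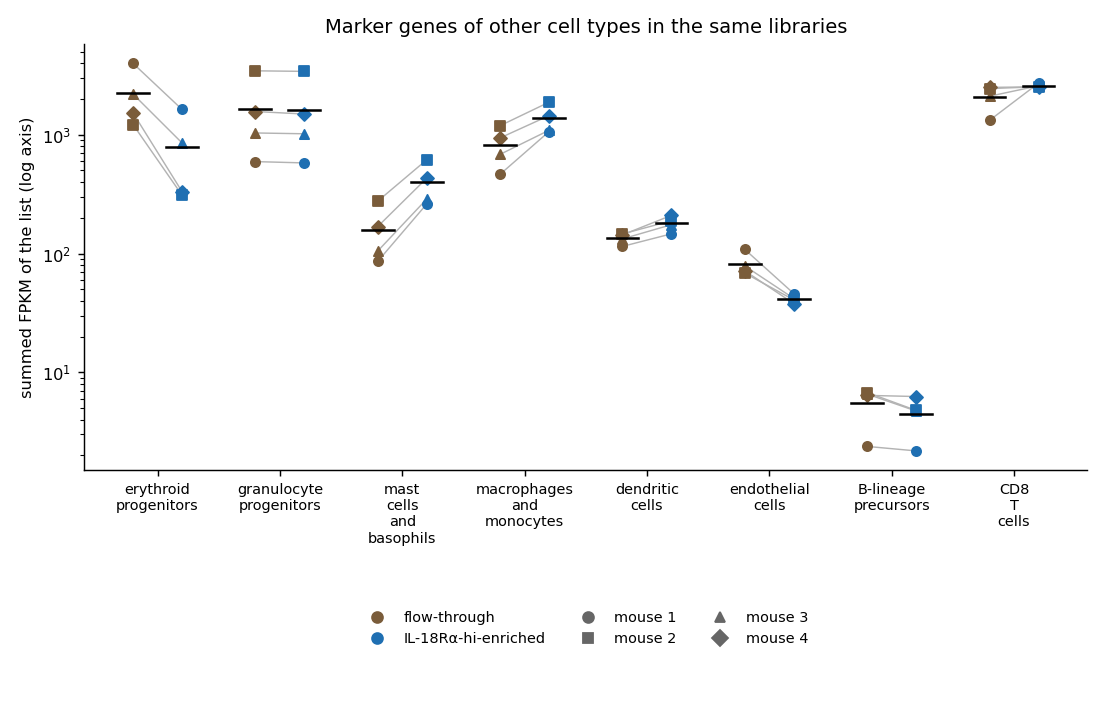
Summed FPKM (log axis) of marker lists in the 4 flow-through (brown) and 4 enriched libraries (blue), with symbols for the mouse, lines joining fractions of 1 mouse and black bars for means. Granulocyte progenitor genes have nearly level lines with a wide spread between mice. The sum of the erythroid genes, though not each gene, is lower in the enriched fraction of every mouse. CD8 T-cell genes are lowest in flow-through replicate 1 (1321).

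The remaining lists touch the members less directly. CD8 T-cell genes summed to 1321 to 2500 FPKM in the flow-through and 2529 to 2714 in the enriched libraries, and 1 of 8 rose (*Cd5*, log2 fold change 0.60). Of 12 proliferation genes 4 rose and 0 fell (*Mki67*, 0.78, *Top2a*, 0.74, *Birc5*, 0.70, and *Tyms*, 0.59). Of 7 NK-cell genes 5 rose, led by *Ncr1* (2.68) and *Klrb1c* (2.02). Of 6 tested B-cell genes *Blk* rose (1.86), and of 4 tested genes of mature neutrophils limma called 0, against 1 at an unadjusted p under 0.05 and 2 higher in the blocked fit.

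When every library was scaled to 8 T-cell genes (*Cd3d*, *Cd3e*, *Cd3g*, *Cd2*, *Cd5*, *Lck*, *Cd8a* and *Cd8b1*), the median difference over all genes moved to -0.37 (log2). Then 522 genes were higher (4.29%) and 1463 lower (12%), and higher genes made up 26.3% of the calls, compared with 50.8% before scaling. Under this scaling 6 members, *Hoxa9* among them, were lower and 0 were higher. *Flt3* had a log2 fold change of 0.87, or 1.24 relative to the median of all genes, and was not called (limma adjusted p = 0.0572), but with the same scaling and the mouse as a block it was called (limma adjusted p = 0.00818). In that fit 1 member was higher (4.95% of all genes) and 6, *Hoxa9* among them, were lower (22.1%). *Myb* (-1.99, or -1.62 relative to the median), *Kit* (-1.49, or -1.12) and *Cd34* (-1.58, or -1.21) remained called, and *Meis1* (-0.74, or -0.37) became so. The scaling left 0 genes higher and 8 lower among the progenitor transcription factors, and 3 and 2 among the surface proteins. It left 0 and 4 among MYB targets and 3 and 1 among PU.1 targets. The KIT and FLT3 signaling genes had 1 and 0, against 5 and 1 before scaling. The ligands, the MYB family and the proliferation genes had 0 and 0. The medians of the MYB family (0.23 to -0.13), the KIT and FLT3 signaling genes (0.21 to -0.17), the genes around GFI1 (0.04 to -0.34) and the granulocyte progenitor genes (0.085 to -0.30) changed sign.

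The genes most like *Myb* and *Kit* over the 8 libraries were found by the root-mean-square difference of mean-centered log2(FPKM + 1) values among 9328 genes of at least 5 FPKM, as a description. For *Myb* they were *Spns2*, a sphingosine-1-phosphate exporter (difference 0.142, against a median of 0.832 over all genes), *Adgrg1* (0.162), *Slc22a3*, an organic cation transporter (0.208), *Myc* (0.213) and *Zg16* (0.215). *Spns2* had 10.8 ± 1.22 FPKM in flow-through cells and 2.97 ± 0.37 FPKM in the enriched cells. For *Kit* they were *Arap3* (0.12, against a median of 0.603), *Cnr2*, the cannabinoid receptor of immune cells (0.126), *Khk*, ketohexokinase (0.137), *Ptov1* (0.159) and *Smim13* (0.159). None of the 5 genes nearest to *Kit* was on a list, and of those nearest to *Myb*, *Adgrg1* and *Myc* were.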

How the data were processed

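The deposited values are FPKM, which the authors computed: reads from stranded poly(A) libraries (150 bp paired ends) were filtered for quality, mapped to mm10 with TopHat and quantified with Cufflinks 2.1.1 with multi-read and fragment-bias correction. The annotation release is not given in the sources used here. Members were matched by gene name. Coordinates are from GENCODE M21 (same build, 98.9% of identifiers found) and promoters from RefSeq. Groups and replicate numbers came from the labels, which do not name the mouse. The paper gives 4 mice per group and describes both fractions as taken from the same cells. Same-numbered libraries deviated together (r across genes 0.308 to 0.66), so the number was taken to mark the mouse.

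The test was limma (version 3.58.1, run in R 4.3.3) with a variance trend and no block, applied to log2(FPKM + 1) of genes averaging 1 FPKM or more. The fit was tested on simulated data. Alternatives were a pseudocount of 0.1, no filter, a filter of 5 FPKM, a replicate block, T-cell and upper-quartile scaling, no trend, and leaving out each library. Leaving out mouse 1 and the block with T-cell scaling were chosen after seeing the data. The members and lists were chosen with earlier results of these data known, so lists are described by counts, medians and values, with no test of a list. Named genes were the members, up to 4 called genes per list with the largest change, and the 5 genes nearest to *Myb* and *Kit*. The table's running numbers reach 47729, and 236 of them, with 1 listed gene, were not analysed here.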

Additional observations from a re-analysis of the deposited data

Results flagged for a closer look

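Within the groups of 4 libraries, 62 were examined (9 genes and 22 lists in 2 fractions), and in 2 of them Dixon's test set 1 library apart, where chance gives about 3.1. *Kit* was at 38.27 FPKM in flow-through replicate 1 while flow-through replicates 2 to 4 had 29.97 to 30.39 FPKM. The 8 B-lineage precursor genes summed to 2.38 FPKM in flow-through replicate 1 against 6.401 to 6.767 FPKM in the others.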

How the results depend on the processing

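*Myb*, *Kit* and *Erg* kept their call in each alternative that tested them. The fits that left out 1 library gave log2 fold changes of -1.715 to -1.523 for *Myb*, -1.172 to -1.005 for *Kit*, -1.091 to -0.8153 for *Erg*, -1.495 to -0.9583 for *Cd34*, 0.9458 to 1.408 for *Flt3*, -0.9046 to -0.6127 for *Hoxa9*, -0.6208 to -0.2858 for *Meis1*, 0.4337 to 0.9558 for *Spi1* and -0.1989 to 0.2606 for *Gfi1*. They called 0 to 1 members higher, 3 to 5 members lower, 1124 to 1802 genes higher and 940 to 1781 genes lower, with fewer samples in each fit. The lowest counts came without enriched replicates 2 (1124 and 956) and 4 (1129 and 973) and flow-through replicate 3 (1155 and 940). Without mouse 1, *Hoxa9* was not called (-0.6127, limma adjusted p = 0.0867).

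With no filter on low values, 22789 genes were tested, and *Flt3* (1.179, limma adjusted p = 0.0685), *Cd34* (-1.24, 0.066) and *Hoxa9* (-0.7613, 0.0615) were not called, which left 0 higher (7.32% of all genes) and 3 lower members (5.63%). A filter of 5 FPKM removed *Hoxa9*, *Meis1* and *Erg* and left 3 lower (14.7% of all genes) and 1 higher member (14.3%). With the replicate block 2705 genes were higher and 2763 lower, 2 members were higher and 6 lower, and *Meis1* (-0.4841) and *Spi1* (0.6995) were called. The block changed no other member's call. Under T-cell scaling 522 genes and 0 members were higher, *Flt3* was not called (0.8726), *Meis1* was (-0.7395), and *Gfi1* turned to -0.3088. With block and T-cell scaling together 602 genes were higher and 2691 lower, 1 member was higher and 6 lower, *Flt3* was again called (0.8726, limma adjusted p = 0.00818), *Meis1* was called (-0.7395) and *Gfi1* was at -0.3088. The causes were not tested. A pseudocount of 0.1, upper-quartile scaling and no variance trend changed no call of a member. FPKM carry no exact depth, so counting error is not given, and it weighs most on *Hoxa9*, *Erg* and *Meis1*, which were under 5 FPKM in all libraries.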
